A study of Mus musculus with 6 samples.

Results

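The genes described here encode the machinery of DNA replication and of S phase. They were a list of 50 genes matched by symbol to the rows of the deposited count tables. The list was chosen with earlier results of these data known, and so gives no independent evidence of direction. All 50 were found among the 25330 genes listed, and all 50 had enough counts to be among the 14020 genes tested. They were measured by RNA-seq in AML12 cells, a mouse hepatocyte line derived from an animal carrying a transforming growth factor alpha transgene and labelled here as wild type (WT). In 3 control libraries the cells were kept under normoxia at 21% oxygen, in medium containing serum, insulin-transferrin-selenium supplement and dexamethasone. In 3 hypoxia-reoxygenation (H/R) libraries the cells spent 6 h at 1% oxygen in medium without serum and glucose and were then reoxygenated for 2 h. Oxygen, serum and glucose thus changed together between the groups, and their effects cannot be told apart. Whether the hypoxia medium kept the insulin-transferrin-selenium supplement and dexamethasone is not stated, so these may have changed as well. The medium used during reoxygenation is not stated. A single cell line was used, and although the study says in general that its experiments were repeated, it does not say whether these libraries came from separate cultures, so the tests measure the spread between these libraries, which may be technical.

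DNA replication starts at origins, where the origin recognition complex (ORC) together with CDC6 and CDT1 loads the ring-shaped MCM helicase during G1. At the onset of S phase the kinase CDC7 with its activator DBF4, and the factors CDC45, GINS and MCM10, turn the loaded helicase into a moving fork. There, polymerase alpha with primase lays down primers, replication factor C (RFC) loads the sliding clamp PCNA, polymerases delta and epsilon copy the strands, RPA coats single-stranded DNA, and FEN1 and LIG1 join the lagging-strand fragments. Ribonucleotide reductase, thymidylate synthase and thymidine kinase supply deoxynucleotides. Many of these genes are transcribed under E2F factors as cells leave G1. Adult hepatocytes are mostly quiescent and express this program when the liver regenerates, whereas cultured lines such as AML12 divide and express it continuously.

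Library totals ranged from 21026650 to 21854790 counts in the control group and from 20438746 to 21742441 in the H/R group, and the least abundant member still had at least 99 counts in every library. Control replicate 1 stood apart from the other libraries. It had 59 genes with at least 10 counts that were at 2 or fewer counts in each of the others, among them the liver genes Serpina1a, Fgb and Cyp2e1, and it held 131335 counts of the ribosomal transcript Rn18s-rs5 against 28347 to 43775 elsewhere. Counts of members were therefore also obtained without it. The hepatocyte label was borne out in part. All 11 hepatocyte markers were listed, and the liver transcription factor gene Hnf4a was detected in every library, but the albumin gene Alb had a normalized count of only 129 to 513 in control and 33.4 to 46.3 in H/R libraries, and Serpina1a, Fgb and Cyp2e1 were at or near 0 outside control replicate 1. All 3 endothelial markers, and 3 of the 4 leukocyte markers, had at most 5 counts in any library, the exception being the lysosomal gene Cd68. The summed normalized count of the 3 biliary markers found (Krt19, Krt7 and Sox9) was between 27096 and 29826 in control and between 53767 and 55986 in H/R libraries. That of the hepatocyte markers was between 85675 and 90721 and between 133941 and 135878, most of it from the keratin genes Krt8 and Krt18. That of the leukocyte markers was between 18.9 and 29.3 and between 125 and 141. Most of it came from Cd68, with a mean normalized count of 19.1 in control and 130 in H/R libraries. The endothelial markers summed to between 0.941 and 7.58 in control and between 1.08 and 6.00 in H/R libraries, and the 4 stellate and fibroblast markers to between 13.3 and 22.6 and between 12.9 and 24.0. The part of these shifts in the results was not tested.

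Replication genes were lower in the H/R cells, to a degree that differed strongly from gene to gene. Of the 50 members, 42 fell at an adjusted p under 0.05 and 0 rose (quasi-likelihood test of edgeR, with p-values adjusted by Benjamini-Hochberg over all tested genes), whereas 31.8% of all tested genes fell and 31.0% rose at the same threshold. The count of members that rose was 0 also by DESeq2, and at an unadjusted p under 0.05. A fall of at least 2-fold was reached by 10 members, which is 20% of them, against 4.27% of all tested genes, and a rise of at least 2-fold by 0, against 4.25%. In 44 members every H/R library lay below every control library, an arrangement seen in 33.5% of all tested genes. In 1 member, Orc4, every H/R library lay above, as in 32.5% of all tested genes, and in 5 members the groups overlapped. The median log2 fold change of the members was -0.50, a 1.41-fold reduction, while the median of all tested genes was -0.01 and their 25th percentile was -0.35. Without control replicate 1, 42 members again fell, 10 of them at least 2-fold, and the median was -0.48. Libraries were scaled with edgeR's TMM factors. Scaled by library totals alone, the median of all tested genes moved to -0.12, that of the members to -0.60, and 46 members fell. The values of Orc4, Cdc7 and Lig1, slightly above 0 with TMM factors, were then -0.05, -0.09 and -0.06.

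**Figure D1:**
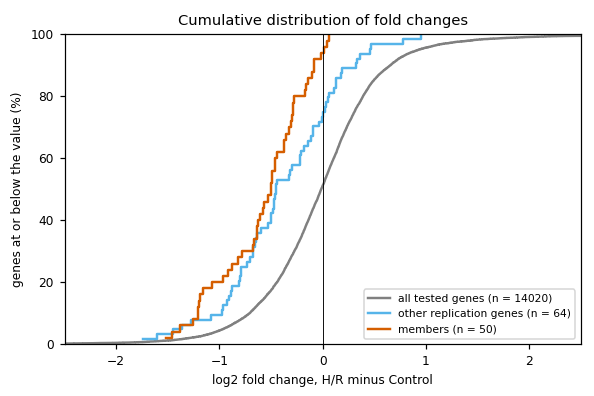
Cumulative share of genes (vertical axis, %) against the log2 fold change between H/R and control (horizontal axis) for all 14020 tested genes, for 64 other replication genes and for the 50 members. The curve of the members lies to the left of that of all tested genes above a log2 fold change of -1.52, with a median of -0.50 against -0.01, and reaches its end near 0, since the highest member, Orc4, was at 0.06.

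The members together held between 0.567% and 0.573% of all counts in the control libraries and between 0.365% and 0.379% in the H/R libraries. The 3 libraries of a group thus lay close together, and the groups did not overlap. In a bulk culture, fewer cells in S phase and less RNA of these genes in each cell cannot be told apart.

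**Figure D2:**
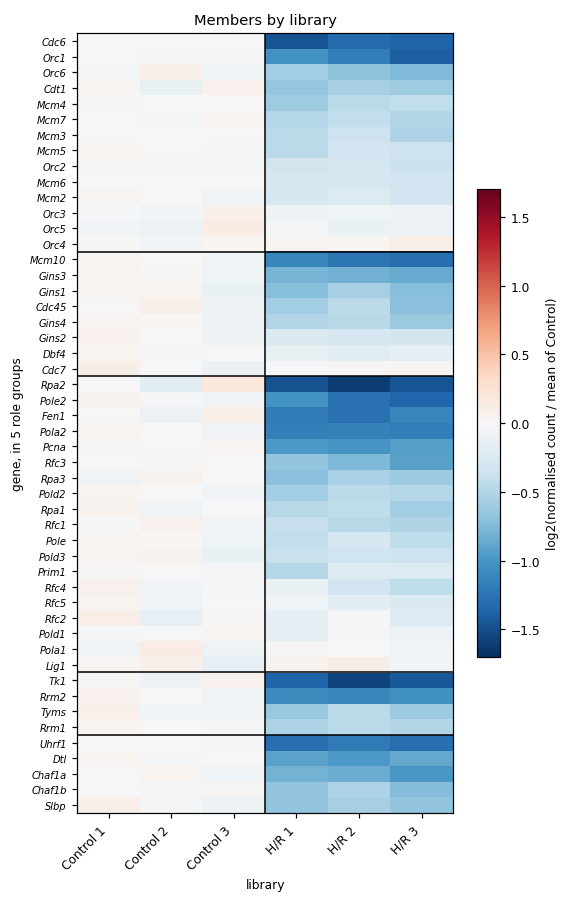
Log2 ratio of the normalized count of each of the 50 members (rows, in 5 role groups separated by lines) to its mean over the control libraries, for each of the 6 libraries (columns). Blue marks values below the control mean. The 3 H/R columns are alike, with the darkest cells for Rpa2, Tk1 and Cdc6 and near-white cells for Orc4, Cdc7, Pola1 and Lig1.

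Promoter sequences are shown for the member with the largest fall in each role group, to set the letters beside genes that fell together. They were taken from RefSeq on GRCm38.p6, in which 44 of the 50 members were matched by symbol, and cover up to 250 bases before the annotated start, read 5′ to 3′ on the strand of the gene. Stretches that GENCODE annotates as exon were left out. Capitals mark CCAAT or its reverse complement ATTGG, the letters bound by NF-Y, and the E2F-type words TTTCGCGC, TTTGGCGC, TTTCCCGC and TTTGCCGC on either strand. The sequences lie at chr11:98907982-98908150 (plus strand, within an intron of a Cdc6 transcript that starts upstream), chr2:5012792-5013041 (minus strand, intergenic), chr4:132768110-132768331 (plus strand, intergenic), chr11:117826093-117826264 (minus strand, inside the gene bodies of Afmid and Gm20708 but outside exons) and chr17:56303087-56303320 (plus strand, intergenic).
Cdc6: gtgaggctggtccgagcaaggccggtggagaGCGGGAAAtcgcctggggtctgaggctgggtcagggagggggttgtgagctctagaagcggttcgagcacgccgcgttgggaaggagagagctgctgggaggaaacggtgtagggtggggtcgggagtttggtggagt
Mcm10: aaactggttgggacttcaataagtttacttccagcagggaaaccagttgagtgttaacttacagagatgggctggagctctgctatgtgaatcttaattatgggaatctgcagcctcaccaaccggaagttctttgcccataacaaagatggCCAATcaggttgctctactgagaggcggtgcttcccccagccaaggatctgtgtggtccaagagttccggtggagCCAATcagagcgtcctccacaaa
Rpa2: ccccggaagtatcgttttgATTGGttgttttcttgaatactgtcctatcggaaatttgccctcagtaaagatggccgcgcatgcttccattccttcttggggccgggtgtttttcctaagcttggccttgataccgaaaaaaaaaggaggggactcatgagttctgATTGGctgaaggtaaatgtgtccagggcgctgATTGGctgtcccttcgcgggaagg
Tk1: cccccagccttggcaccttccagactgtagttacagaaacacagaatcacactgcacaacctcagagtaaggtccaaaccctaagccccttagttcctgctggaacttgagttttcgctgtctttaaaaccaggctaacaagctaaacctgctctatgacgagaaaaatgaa
Uhrf1: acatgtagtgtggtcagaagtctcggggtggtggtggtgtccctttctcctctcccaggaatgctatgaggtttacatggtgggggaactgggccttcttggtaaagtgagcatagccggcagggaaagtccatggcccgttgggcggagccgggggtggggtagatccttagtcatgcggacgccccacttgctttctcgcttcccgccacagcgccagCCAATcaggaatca

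Of these 5 stretches, that of Cdc6 held 1 E2F-type word, those of Mcm10, Rpa2 and Uhrf1 held 2, 3 and 1 CCAAT words, and that of Tk1 held neither. Uhrf1 has 2 listed starts, and an E2F-type word lay only at the start not shown. Over windows of 300 bases (250 before the start to 50 after it), an E2F-type word was found at a listed start of 17 of the 44 members (38.6%), against 4.79% of the 9201 tested genes with a listed promoter and 2.27% of all 32851 promoters. CCAAT was found for 27 of the 44 members (61.4%), against 43.4% of those tested genes and 37.4% of all promoters. The palindrome CACGTG occurred for 8 members (18.2%, against 11.8% of tested genes and 7.15% of all promoters). The word ACGTG, which also lies inside CACGTG, occurred for 15 (34.1%, against 29.6% and 19.6%). Holding an E2F-type word did not go with a deeper fall among the members. The median log2 fold change was -0.46 for the 17 that held it, of which 13 fell, and -0.57 for the 27 that did not, of which 24 fell. For CCAAT the medians were -0.58 in the 27 that held it, of which 25 fell, and -0.35 in the 17 that did not, of which 12 fell. Of the 10 members that fell at least 2-fold, all with a listed promoter, 4 held an E2F-type word. Over the 9201 tested genes with a listed promoter, the median log2 fold change was -0.10 with an E2F-type word and -0.02 without. For CCAAT it was -0.05 with the word and -0.0003 without. Only the 4 exact E2F-type words given above were searched, and other forms of the site were not looked for. A match describes letters in a window and not a bound site.

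Among the 14 genes of origin licensing, 11 fell and 3 did not pass the test, and 2, Cdc6 and Orc1, fell at least 2-fold. The median log2 fold change was -0.41, with every value between -1.38 and 0.06. Cdc6, the ATPase that brings the helicase to ORC, had normalized counts of 1007, 998 and 1009 in the control replicates and 363, 404 and 392 in the H/R replicates. Every H/R library was thus far below every control library, at 38.5% of the control mean on average (log2 fold change -1.38, standard error 0.062, adjusted p = 8.33e-20, edgeR's quasi-likelihood test). Cdt1, its partner in loading, fell less, from 776 ± 58.4 to 509 ± 18.2 (SD, n = 3 each; log2 fold change -0.61).

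The subunits of ORC separated. Orc1, the subunit whose level is known to follow the cell cycle, had normalized counts of 288, 292 and 280 in control and 140, 127 and 109 in H/R replicates, a log2 fold change of -1.19 (95% interval -1.41 to -0.98, adjusted p = 6.02e-12). Orc6, which joins the complex more loosely, had normalized counts of 1279, 1372 and 1224 in control and 865, 802 and 769 in H/R replicates (log2 fold change -0.67, interval -0.79 to -0.55). Orc2 fell to 79.7% of control (log2 fold change -0.33, interval -0.43 to -0.22). The remaining core subunits did not pass the test. Orc3 had a log2 fold change of -0.09 (interval -0.25 to 0.08), Orc5 of -0.08 (interval -0.29 to 0.13) and Orc4 of 0.06 (interval -0.04 to 0.16). The intervals of Orc1, Orc6 and Orc2 did not overlap each other. Within libraries, where the scaling between libraries cancels, the RPKM ratio of Orc1 to Orc4 was 0.474, 0.507 and 0.460 in control and 0.227, 0.209 and 0.171 in H/R replicates. Because this pair was chosen for its difference, the ratio is a description. The exons of Orc2 share 29.8% of their length with another gene, mainly Nif3l1 on the opposite strand, which itself fell (log2 fold change -0.53), and the exon overlap was 10.8% for Orc1, 6.93% for Orc6, 7.80% for Orc4 and 1.46% for Orc5, and whether the counting used the strand is not stated.

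The helicase genes Mcm2 to Mcm7, whose products form the ring in equal numbers, moved more evenly. All 6 fell, between a log2 fold change of -0.28 (Mcm2) and -0.49 (Mcm4), and in each of them the groups did not overlap. Mcm4 had normalized counts of 2176, 2138 and 2134 in control and 1416, 1571 and 1615 in H/R replicates. Mcm2 had 6976, 6782 and 6454 in control and 5518, 5740 and 5357 in H/R replicates. Per length, their levels spanned a wide range, from 29.3 ± 0.292 RPKM for Mcm4 to 98.7 ± 1.23 RPKM for Mcm3 in control cells (SD, n = 3 each), and were 19.5 ± 1.47 and 67.4 ± 3.54 RPKM after H/R. Mcm7 shares 12.6% of its exon length with other genes, including the microRNA genes Mir25 and Mir93 inside it.

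**Figure D3:**
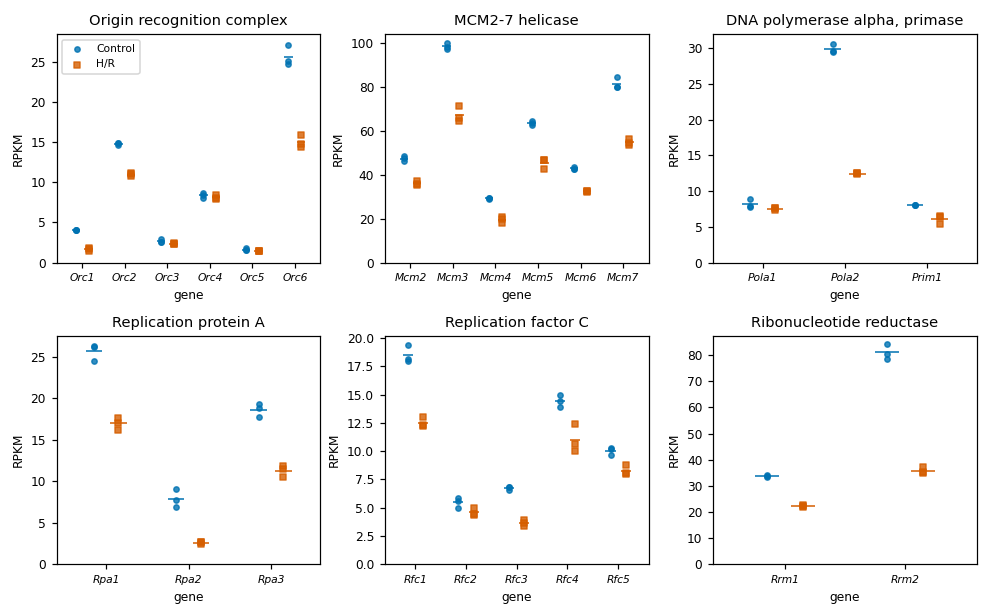
RPKM (vertical axes, linear and starting at 0) of the subunits of 6 complexes in each of the 3 control (blue circles) and 3 H/R libraries (orange squares), with short lines at the group means. Pola2, Rpa2 and Rrm2 drop to 12.5, 2.57 and 35.8 RPKM, whereas Pola1 goes from 8.19 to 7.53 and Orc4 from 8.40 to 8.13 RPKM.

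Of the 8 genes of origin firing, 7 fell and 1, Cdc7, did not pass the test (median log2 fold change -0.55). Mcm10, which steadies polymerase alpha and the active helicase at the fork, had normalized counts of 2892, 2794 and 2704 in control and 1292, 1198 and 1150 in H/R replicates. It was the only gene of this group that fell at least 2-fold (log2 fold change -1.20, standard error 0.049, adjusted p = 4.56e-21). Cdc45, a partner of the active helicase, fell from 892 ± 55.1 to 598 ± 56.2 (SD, n = 3 each), a log2 fold change of -0.58. All 4 GINS genes fell, Gins3 by 0.82, Gins1 by 0.67, Gins4 by 0.53 and Gins2 by 0.28 on the log2 scale. The value of Gins2 is uncertain, because 67.3% of its exon length lies in exons of Gse1 on the opposite strand, and Gse1 rose (log2 fold change 0.62). Of the kinase that fires origins, the catalytic gene Cdc7 had normalized counts of 306, 284 and 266 in control and 278, 290 and 296 in H/R replicates, with overlapping groups and a log2 fold change of 0.01 (interval -0.16 to 0.19). Its activator Dbf4 fell by 0.16 on the log2 scale, to 89.4% of control.

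Of the 19 genes of the polymerases, the clamp, RPA and fragment joining, 15 fell and 4 did not pass the test, and the median log2 fold change was -0.46. The 4 that fell at least 2-fold were Rpa2, Pole2, Fen1 and Pola2. Rpa2, a subunit of the complex that covers single-stranded DNA, had the lowest log2 fold change of the 50 members with TMM scaling. Its normalized counts were 478, 424 and 544 in control and 173, 158 and 175 in H/R replicates, or 35.0% of control (log2 fold change -1.52, standard error 0.095, adjusted p = 1.26e-15). The other subunits of the complex fell less, Rpa3 to 64.9% and Rpa1 to 71.0% of control, with intervals that did not overlap that of Rpa2. The RPKM ratio of Rpa2 to Rpa1 was 0.293, 0.282 and 0.345 in control and 0.154, 0.136 and 0.166 in H/R replicates. This pair, like Pola2 with Pola1 and Rrm2 with Rrm1 below, was compared because its members differed, and the ratio is a description.

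The genes of polymerase alpha also differed, but here 1 subunit fell and the other did not pass the test. Pola2, its regulatory subunit, had normalized counts of 1821, 1747 and 1701 in control and 785, 792 and 779 in H/R replicates (log2 fold change -1.16, adjusted p = 4.49e-20). Pola1, the catalytic subunit, had 1417, 1611 and 1392 in control and 1488, 1472 and 1414 in H/R replicates, so that the groups overlapped (log2 fold change -0.02, interval -0.12 to 0.09). The RPKM of Pola2 was 3.67 ± 0.315 times that of Pola1 in control and 1.65 ± 0.0354 times in H/R libraries (SD, n = 3 each). The primase gene Prim1 fell by 0.31 on the log2 scale. The promoters of this pair, shown because its members differed, lie at chr19:5964207-5964456 and chrX:93632156-93632405, both on the minus strand and intergenic. That of Pola2 held neither kind of word, and that of Pola1 held 1 E2F-type word and 1 CCAAT word, with capitals as above.
Pola2: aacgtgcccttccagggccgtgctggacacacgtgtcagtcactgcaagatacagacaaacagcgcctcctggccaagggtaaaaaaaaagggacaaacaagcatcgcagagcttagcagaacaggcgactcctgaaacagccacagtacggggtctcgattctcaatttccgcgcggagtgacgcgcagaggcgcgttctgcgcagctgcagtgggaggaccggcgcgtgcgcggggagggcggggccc
Pola1: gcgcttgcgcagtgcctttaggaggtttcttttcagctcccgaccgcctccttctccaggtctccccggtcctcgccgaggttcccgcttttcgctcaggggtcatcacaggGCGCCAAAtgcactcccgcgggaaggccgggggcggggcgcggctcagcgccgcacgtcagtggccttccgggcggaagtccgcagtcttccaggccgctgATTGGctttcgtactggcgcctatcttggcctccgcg

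Of the polymerase epsilon genes, the accessory subunit Pole2 fell to 43.3% of control (log2 fold change -1.21, standard error 0.110), with normalized counts of 268, 255 and 250 in control and 127, 107 and 101 in H/R replicates. The catalytic subunit Pole fell to 77.2%. Of the polymerase delta genes, Pold2 fell by 0.50 and Pold3 by 0.35 on the log2 scale. The catalytic subunit Pold1 did not pass the test (log2 fold change -0.10, interval -0.22 to 0.02), although each of its H/R libraries lay below each control library.

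Pcna, the sliding clamp, had normalized counts of 4309, 4403 and 4548 in control and 2255, 2208 and 2307 in H/R replicates, or 51.1% of control (log2 fold change -0.97, adjusted p = 5.12e-20). With TMM factors it thus stayed just short of 2-fold, whereas it was past 2-fold with upper quartile scaling (log2 fold change -1.04), with library totals (-1.07) and in the limma-trend fits on log2(RPKM + 1) (-1.06) and log2(RPKM + 0.1) (-1.07). Its processed copy Pcna-ps2 took 715 to 819 raw counts in control and 357 to 446 in H/R libraries and fell as well (log2 fold change -0.85). With the counts of both summed, a step chosen after seeing the data, the log2 fold change was -0.95. Of the clamp loader genes, Rfc3 fell by 0.78, Rfc1 by 0.46, Rfc4 by 0.29 and Rfc5 by 0.17 on the log2 scale. Rfc2 had a log2 fold change of -0.14 (interval -0.276 to 0.0012, adjusted p = 0.0789, same test) and overlapping groups, and it fell when libraries were scaled by their totals. The exons of Rfc1 and Rfc3 are free of other genes, whereas those of Rfc2, Rfc4 and Rfc5 overlap other genes by 15.1%, 12.6% and 10.7% of their length. Without H/R replicate 3, Rfc5 no longer passed the test (log2 fold change -0.13, adjusted p = 0.0733, same test).

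The enzymes that finish the lagging strand differed. Fen1, the flap endonuclease, fell from 2392 ± 165 to 1047 ± 56.1 (SD, n = 3 each; log2 fold change -1.19). However, 84.2% of its exon length is shared with other genes, mainly Gm10143 on the opposite strand, whose log2 fold change was -1.19, so the counts of this pair cannot be told apart unless the counting used the strand. Raw counts were 2535, 2279 and 2711 for Fen1 and 2441, 2197 and 2611 for Gm10143 in control replicates. In H/R replicates they were 974, 918 and 1103 for Fen1 and 941, 870 and 1081 for Gm10143. Whether both rows hold the same reads was not tested. Lig1, the DNA ligase, was the member with the highest level per length in control cells, at 103 ± 7.01 RPKM, and had 98.7 ± 4.10 RPKM after H/R (SD, n = 3 each). Its normalized counts were 9307, 9510 and 8156 in control and 9381, 9628 and 8739 in H/R replicates. The groups overlapped, and the log2 fold change of 0.04 (interval -0.07 to 0.15) did not pass the test.

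All 4 genes of nucleotide supply fell, with a median log2 fold change of -0.82. Tk1, the S-phase thymidine kinase of the salvage route, had normalized counts of 783, 721 and 813 in control and 299, 259 and 285 in H/R replicates, or 36.4% of control (log2 fold change -1.46, standard error 0.073, adjusted p = 1.66e-18). Rrm2, the small subunit of ribonucleotide reductase, whose level is known to follow the cell cycle, had 4834, 4569 and 4374 in control and 2159, 2134 and 2238 in H/R replicates (log2 fold change -1.08, adjusted p = 9.43e-21). For either gene each H/R library was far below each control library. Rrm1, the large subunit, fell to 70.9% of control, and Tyms, which makes thymidylate, to 67.4%. The RPKM ratio of Rrm2 to Rrm1 was 2.41 ± 0.0676 in control and 1.61 ± 0.0618 in H/R libraries (SD, n = 3 each).

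All 5 genes of chromatin assembly and S-phase control fell (median log2 fold change -0.88). Uhrf1, which recruits maintenance DNA methylation to new DNA, had normalized counts of 4927, 4921 and 4817 in control and 1993, 2124 and 2013 in H/R replicates (log2 fold change -1.26, standard error 0.043, adjusted p = 3.51e-23). The spread within each group was small beside the gap between them. Dtl, the adaptor of the ubiquitin ligase that removes CDT1 in S phase, fell to 52.9% of control (log2 fold change -0.92). Of the chromatin assembly factor CAF-1, which places histones behind the fork, Chaf1a fell to 54.5% and Chaf1b to 64.3% of control. Slbp, which binds the stem-loop of replication-dependent histone mRNAs, fell from 4765 ± 284 to 3066 ± 141 (SD, n = 3 each; log2 fold change -0.64). Chaf1a shares 18.7% and Slbp 7.80% of exon length with other genes.

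**Figure D4:**
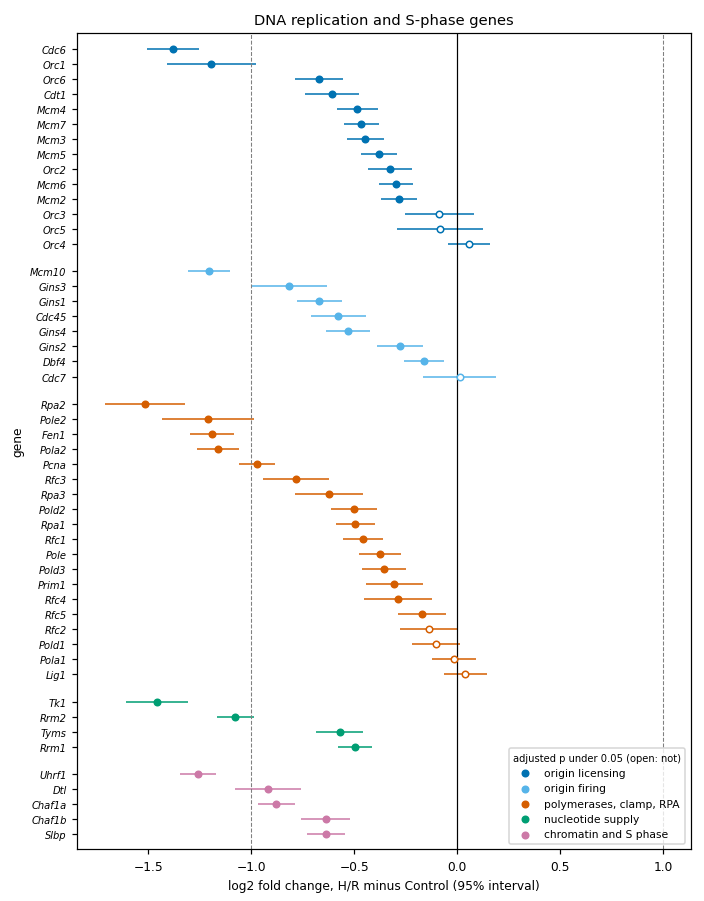
Log2 fold change between H/R and control (horizontal axis) of the 50 members (rows) in 5 role groups, with 95% intervals as bars and dashed lines at a 2-fold change. Filled points passed an adjusted p of 0.05 (edgeR's quasi-likelihood test), and the 8 open points did not. All 42 filled points lie to the left of 0.

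Overlap of exons with other genes was present in 18 members, and 14 of these fell. Of the 32 members without such overlap 28 fell, 7 of them at least 2-fold, with a median log2 fold change of -0.55. Across the 50 genes, Spearman's rho of the log2 fold change with the control RPKM was -0.127 and with the exon length 0.383. These are descriptions across genes, which come from the same libraries and are not independent replicates.

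The other replication genes were taken from a list of 64 genes with E2F regulators, further origin and fork factors, nucleotide enzymes and chromatin factors, all of which were tested. Of these, 42 fell (65.6%) and 9 rose (14.1%), against 31.8% and 31.0% of all tested genes. The median log2 fold change was -0.45. A fall of at least 2-fold was reached by 6 (9.38%), against 4.27% of all tested genes. The 3 deepest falls were those of Dna2, a nuclease that processes flaps, of Clspn, the checkpoint mediator claspin, and of Asf1b, a histone chaperone. Their log2 fold changes were -1.74, -1.60 and -1.45. Clspn had normalized counts of 2009, 2046 and 1902 in control and 654, 669 and 637 in H/R replicates. Among the nucleotide enzymes of this list 8 of 10 fell (80%) and 1 rose. That was the p53-inducible subunit gene Rrm2b, named after its value was seen (log2 fold change 0.19). Of the 18 fork genes 13 fell (72.2%) and 1 rose. The gene that rose was Pold4, the small subunit of polymerase delta, with normalized counts of 135, 101 and 103 in control and 245, 196 and 215 in H/R replicates (log2 fold change 0.95, adjusted p = 3.22e-08, edgeR's quasi-likelihood test). It thus moved against Pold2 and Pold3 of the same enzyme.

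Of the 13 genes that control E2F activity, 5 fell (38.5%) and 6 rose (46.2%), against 31.8% and 31.0% of all tested genes, so that these shares are not read as a result about the group. E2f1 fell from 411 ± 17.1 to 222 ± 24.7 (SD, n = 3 each; log2 fold change -0.88, adjusted p = 1.30e-10, edgeR's quasi-likelihood test). E2f5 rose from 77.1 ± 5.69 to 132 ± 11.2 (SD, n = 3 each; log2 fold change 0.78), and Rb1 rose by 0.47 on the log2 scale. Named after their values were seen, E2f8 (log2 fold change -1.37), Rbl1 (-0.80) and E2f6 (-0.50) fell. E2f4 (0.46), E2f2 (0.36), E2f3 (0.34) and E2f7 (0.32), named likewise, rose. In each of these genes the control and H/R libraries did not overlap. Every H/R library lay below every control library in 33.5% of all tested genes, and above in 32.5%. Tfdp1, which encodes a partner of E2F factors and was likewise named after its value was seen, fell (log2 fold change -0.93). Tfdp2 (0.17) and Rbl2 (0.11), also named afterwards, did not pass the test. The genes named as rising also had a higher mean RPKM after H/R, a unit scaled by library totals, for E2f7 7.08 against 6.09 and for Rb1 3.19 against 2.48. The number of the 64 genes called higher depended on the scaling, however, and was 7 rather than 9 with upper quartile scaling or library totals and 6 in the limma-trend fits on RPKM.

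**Figure D5:**
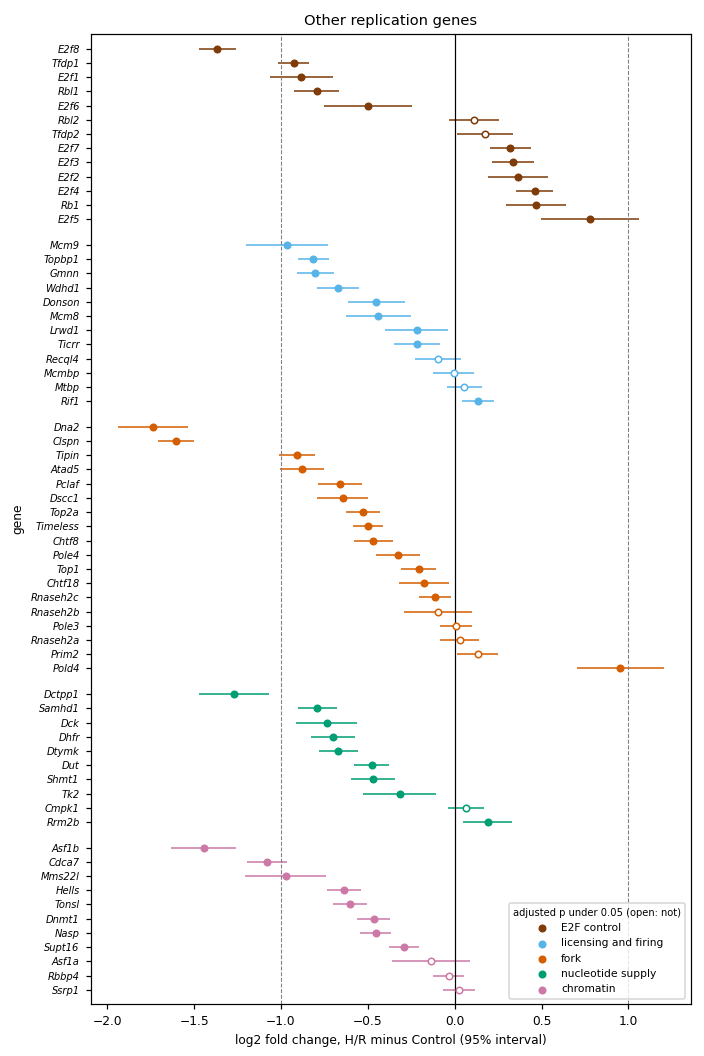
Log2 fold change between H/R and control (horizontal axis) of 64 other replication genes (rows) in 5 groups, with 95% intervals as bars and dashed lines at a 2-fold change; filled points passed an adjusted p of 0.05. Most points lie left of 0, with Dna2 lowest at -1.74, while Pold4 (0.95) and E2f5 (0.78) lie furthest to the right.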

How the data were processed

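RNA-seq of AML12 cells in 3 normoxic control and 3 H/R libraries was analysed, with groups and replicate numbers from the sample labels. The authors prepared stranded mRNA libraries and mapped paired-end reads to GRCm38. The submitters' processing notes name Trimmomatic 0.36, featureCounts (Subread 1.5.1) and edgeR 3.12.1. The annotation and strand setting of the counting are not given in the sources used here. The deposited count tables hold raw whole-number counts for each gene. The deposited RPKM values could be recomputed from count, gene length and library total (largest relative error 1.13e-06), and were used for levels between genes.

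Counts were analysed with edgeR 4.0.16 in R 4.3.3: filterByExpr, TMM scaling, robust glmQLFit and glmQLFTest, with Benjamini-Hochberg adjustment over 14020 genes. Calls required an adjusted p under 0.05, and for the second count a fold change of at least 2, the thresholds of the study. Standard errors were derived from the F statistic and intervals are at 95%. Normalized counts are raw counts scaled to the mean effective (TMM-scaled) library size. In simulated counts drawn with the fit's own dispersion estimates, and with as many genes raised as lowered, the fit recovered the known changes. Such a simulation does not test the choice of scaling. It changed only a small share of the genes and none by less than 2-fold, so it does not test calls of smaller changes. An exact permutation test of 3 against 3 libraries cannot give a p under 0.1 and was not used. Exon overlap was computed from the exons in the tables. Alternatives used DESeq2 1.42.0 and limma 3.58.1. The named genes are the 50 members, E2f1 and the 3 lowest and 3 highest called genes of the other list, with exceptions stated. Members and lists were chosen with earlier results of these data known, and so give no independent evidence of direction.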

Additional observations from a re-analysis of the deposited data

How the results depend on the processing

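Under the 9 alternatives run on all 6 libraries and with each library left out in turn, 0 members rose. The number of members that fell stayed between 41 and 46, and that falling at least 2-fold between 10 and 12. The median log2 fold change of the members moved by more than the spread between replicates with upper quartile scaling (-0.57), library totals alone (-0.60), and limma-trend fits on log2(RPKM + 1) (-0.58) and log2(RPKM + 0.1) (-0.60), all deeper than -0.50. The RPKM values are scaled by library totals. A fold threshold of 1.5 left 21 members, by construction. With members sharing exon sequence left out, an alternative added after seeing the data, 28 of 32 fell. Over all tested genes, 49.4% of calls were higher after H/R under TMM, 41.6% under upper quartile and 37.9% under total scaling.

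No pairing by replicate number was seen, since the deviations of same-numbered libraries correlated at -0.0269, 0.00476 and -0.0141. With the replicate block, 42 members fell, 10 of them at least 2-fold, the median log2 fold change was -0.50, and of the other replication genes 42 fell and 10 rose. Over the alternatives run on all 6 libraries, between 39 and 45 of these genes fell and between 6 and 10 rose.

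Of the 8 members that did not pass the test, 4 changed sign. In the order of upper quartile scaling, library totals, log2(RPKM + 1) and log2(RPKM + 0.1), the log2 fold change was -0.0135, -0.0480, -0.0426 and -0.0471 for Orc4, -0.0568, -0.0906, -0.0688 and -0.0872 for Cdc7, and -0.0292, -0.0635, -0.0611 and -0.0617 for Lig1. With each library left out in turn it ranged from -0.0339 to 0.0664 for Cdc7, from -0.0245 to 0.0829 for Lig1 and from -0.0542 to 0.0524 for Pola1. Pold1 passed the test under these 4 alternatives, Rfc2 under the same 4 and without control replicate 2 or H/R replicate 2, and Orc3 and Pola1 with library totals, each lower. The cause was not tested. Precision was lower for genes with few counts, the standard error being 0.110 for Pole2 and 0.043 for Uhrf1.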
